A study of Mus musculus with 8 samples.

Results

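In the long-term blood stem cells of the mouse (LT-HSC), gene expression was compared after 2 Gy total body irradiation between mice depleted of CD169+ macrophages and mice that kept them. The comparison sets 2 arrays of the CD169-DTR 2 Gy group against 2 arrays of the wild-type (WT) 2 Gy group, 4 of the 8 arrays of the series, and every difference is CD169-DTR minus WT. CD169-DTR mice (CD169DTR/+ in the labels) are heterozygous for the diphtheria toxin receptor at the locus of CD169, the product of Siglec1. Diphtheria toxin was given to mice of both genotypes, so the WT mice are toxin-treated controls, and irradiation followed 72 h later. LT-HSC were sorted from bone marrow on day 5 after irradiation, by the absence of lineage markers, Flk2 and CD48 and the presence of cKit, Sca and CD150. The other 4 arrays, 2 per genotype, come from sham-irradiated mice given the same toxin and are used here only beside the irradiated ones. All 30294 probe sets with 1 gene symbol, of 40161 on the array, were compared, and they stand for 29915 genes. The toxin acts on every cell that uses the CD169 locus, how far macrophages were depleted in these mice was not analysed here, and the number of mice behind an array is not given in the sources used here.

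Haematopoietic stem cells are held in the marrow by stromal cells that make the chemokine CXCL12, which binds the receptor CXCR4 on the stem cell. CD169 marks resident macrophages of the marrow, which are known to maintain this stromal support, to nurse red cell precursors and recycle their iron, and to clear dying cells. Ionising radiation breaks DNA and activates p53, whose targets include the cell cycle inhibitor p21, encoded by Cdkn1a, and surviving stem cells leave quiescence and divide to refill the marrow. The comparison asks how loss of these macrophages alters the state of LT-HSC in irradiated marrow.

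Values are log2 RMA values, one per probe set and array, where RMA is a summary of background-corrected and quantile-normalised probes, and a log2 difference of 1 is a 2-fold difference. The median value of an array lay between 4.86 and 5.03, so values near 4 to 5 are close to background. The labels call the 2 arrays of a group replicates from distinct experiments, but nothing says how many animals each stands for, and p-values measure only the spread between these arrays. WT 2 Gy replicate 1 and CD169-DTR 2 Gy replicate 2 stood apart from the other arrays, at 29.53 and 40.34 on the first principal component and at 45.33 and -36.75 on the second (21.66% and 19.65% of the variance). Across probe sets WT 2 Gy replicate 2 correlated more closely with CD169-DTR 2 Gy replicate 1 (Pearson r = 0.993) than with its own partner (0.991), and the CD169-DTR 2 Gy arrays had an r of 0.991 with each other. Medians of several lists are therefore given with and without the 2 outlying arrays, whereas most single genes are given by their value in each array.

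Depletion of CD169+ macrophages gave no gene a difference that passed the threshold after 2 Gy. With limma, 0 of 30294 probe sets (0%) had an adjusted p under 0.05, and the smallest adjusted p was 0.412, for Cxcr4. At an unadjusted p under 0.05, 1168 probe sets were higher (3.86%) and 1125 lower (3.71%) in CD169-DTR LT-HSC. Both CD169-DTR values lay above both WT values for 4834 probe sets (16%) and below them for 5728 (18.9%). A single-gene permutation test of 2 arrays against 2 cannot give a two-sided p below 0.333, so the limma fit over 4 groups is the only test used. The difference taken within replicate 1 and the one within replicate 2 correlated across probe sets with r = 0.05 (Spearman rho = 0.03), and 48.5% of probe sets had the same sign in both. Genes are described below in the order of the pathways above, with no gene or list called as changed. A difference in a bulk sample can reflect more or fewer cells of a type or more or less RNA per cell, which cannot be told apart.

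Each list of genes is described by how many members were higher or lower and by its median difference. For reference, 13688 of the 29915 genes were higher and 15934 lower, and the median difference over all probe sets was -0.02. Among the 10150 protein-coding genes above the median level, 5904 were higher and 4167 lower, with a median of 0.07, and 25.7% lay entirely above and 13.5% entirely below WT. Of these, 820 were higher and 319 lower at an unadjusted p under 0.05 in limma. The lists with the highest medians were G2/M and mitosis, and G1/S and DNA replication, and the lowest was the list of neutrophil and granulocyte-monocyte progenitor genes.

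**Figure D1:**
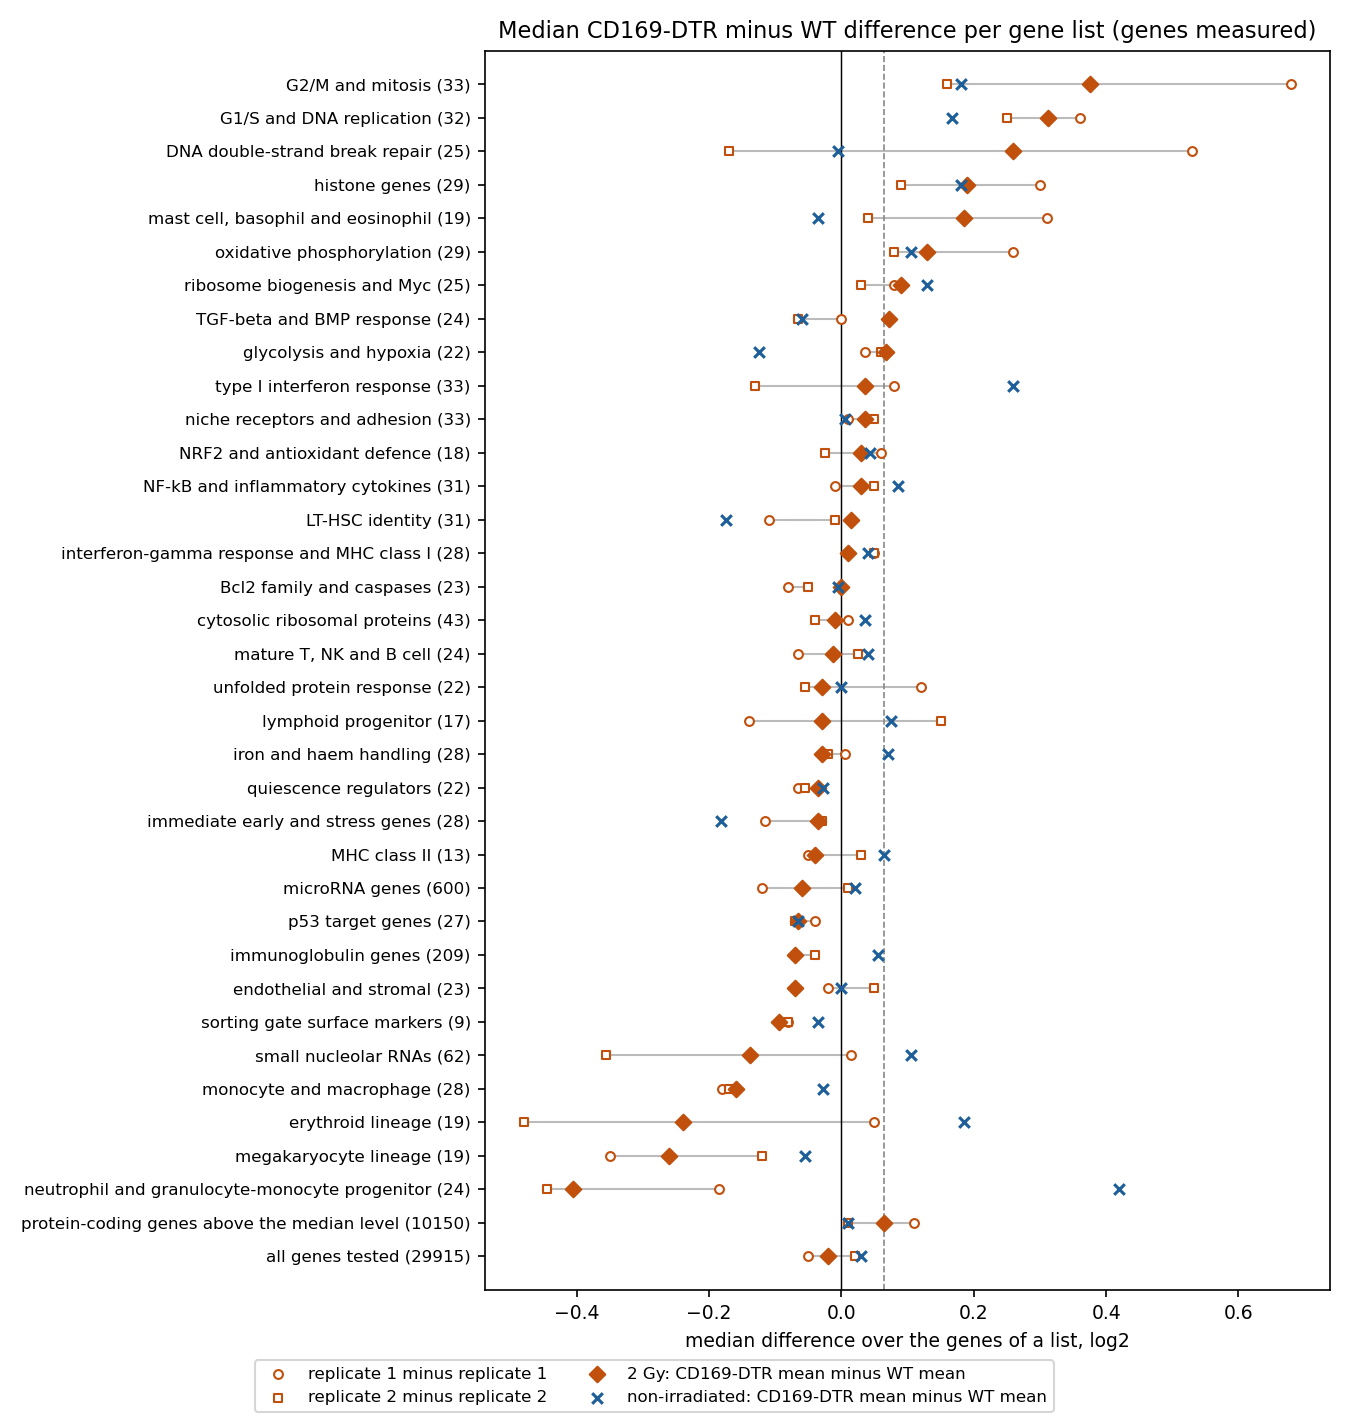
Median CD169-DTR minus WT difference (log2, horizontal axis) over the measured genes of each list, with the number of genes in brackets. Filled diamonds are the 2 Gy comparison, open circles and squares its replicate 1 and replicate 2 differences, crosses the non-irradiated comparison, and the dashed line the median of protein-coding genes above the median level. The cell cycle lists lie at the top (0.38 and 0.31) and the neutrophil list is lowest after 2 Gy (-0.41) but at 0.42 without irradiation.

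Cxcr4, the receptor for CXCL12, gave the smallest p-value of all probe sets. Its values were 12.43 and 12.51 in the WT 2 Gy arrays and 13.79 and 13.88 in the CD169-DTR 2 Gy arrays. The groups did not overlap and the gap between them was far wider than the gap within either, with means of 12.47 ± 0.06 and 13.84 ± 0.06 (SD, n = 2). Cxcr4 was thus 2.58-fold higher in CD169-DTR LT-HSC (95% interval 2.11 to 3.14), with an adjusted p of 0.412 in limma. In non-irradiated mice the values were 14.16 and 14.10 in WT and 14.17 and 14.00 in CD169-DTR, so that the WT 2 Gy arrays were the low ones and the other 6 lay between 13.79 and 14.17. The difference was 1.41 larger after 2 Gy than without irradiation (SE 0.17, unadjusted p = 9.57e-05, adjusted p = 0.679 in limma), the second smallest p-value of that test. In it 0 probe sets passed (0%) and 1567 (5.17%) had an unadjusted p under 0.05. The interaction test contains the 2 Gy difference, in which Cxcr4 had the smallest p-value, so its rank there adds no separate support. Over 14 alternative settings, with each 2 Gy array and both outlying arrays left out among them, the Cxcr4 difference was 1.28 to 1.44.

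Among 33 receptors and adhesion molecules of the niche, 17 were higher and 16 lower, with a median of 0.04. At an unadjusted p under 0.05, 4 were higher and 1 lower, against 3.86% and 3.71% of all probe sets. Itga5, the alpha chain of the fibronectin receptor, had 9.41 and 9.67 in WT against 10.19 and 10.29 in CD169-DTR, 1.62-fold higher (1.30 to 2.02). The groups did not overlap, but unlike Cxcr4 the gene was also higher without irradiation (9.69 and 9.77 against 10.35 and 10.28), and its difference was not distinguishable between the conditions (interaction 0.12, SE 0.19). Robo4, an endothelial and stem cell receptor that aids retention in the marrow, was at 7.24 and 7.67 against 7.83 and 7.96, both groups below the non-irradiated arrays (8.23 to 8.53). Jam3, a junctional adhesion molecule, was the 1 lower member, at 5.33 and 5.62 against 5.00 and 4.62. Kit, the receptor for stem cell factor, was alike in all 4 irradiated arrays (14.36, 14.33, 14.25 and 14.25).

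**Figure D2:**
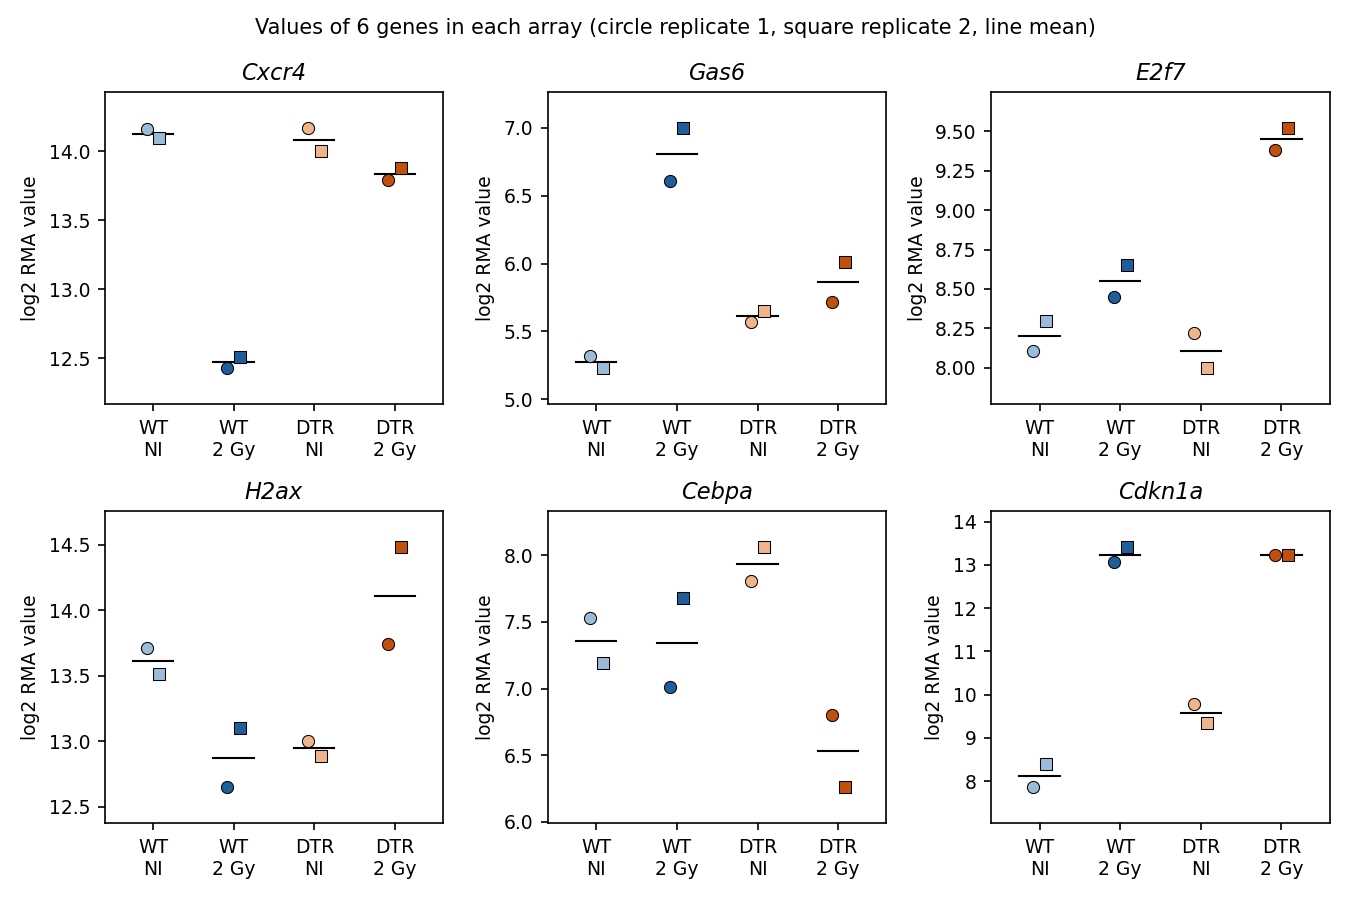
log2 RMA values (vertical axis, a separate scale per gene) of 6 genes in the 4 groups, where NI is non-irradiated, circles are replicate 1, squares replicate 2 and lines the mean of the group. Cxcr4 is low only in the WT 2 Gy arrays (12.43 and 12.51), Gas6 is high only there (6.61 and 7.00), E2f7 is highest in the CD169-DTR 2 Gy arrays (9.38 and 9.52), and Cdkn1a is near 13 in both irradiated groups.

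Gas6 showed the opposite pattern to Cxcr4. It encodes a ligand of the receptor tyrosine kinases Tyro3, Axl and Mertk, which serve the uptake of dying cells and restrain inflammation. Its values were 6.61 and 7.00 in WT 2 Gy and 5.72 and 6.01 in CD169-DTR 2 Gy, 1.92-fold lower (1.44 to 2.55) with an adjusted p of 0.551 in limma. The non-irradiated arrays lay at 5.23 to 5.65, so only the WT 2 Gy arrays were above 6.1. The interaction was -1.27 (SE 0.24, unadjusted p = 0.0015, adjusted p = 0.778). Of the receptors, Axl was at 7.16 and 6.42 against 6.79 and 6.71, a difference of -0.04 whose sign turned with median centring (0.03) and without WT 2 Gy replicate 1 (0.33), and Mertk was near background in all 4 irradiated arrays (4.14 to 4.54).

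The other genes with the smallest p-values, at least 1.5-fold and without overlap, came from many kinds of cell function. By these criteria and a level above the median, 1408 probe sets stood out, 757 higher and 651 lower, of which 506 were predicted genes, small RNAs or receptors passed over by the naming rule. Among the higher ones were Emc1, a subunit of the complex that inserts membrane proteins into the endoplasmic reticulum (7.68 and 7.53 against 8.85 and 8.68), Mrps34, a mitochondrial ribosomal protein (8.36 and 8.51 against 9.21 and 9.27), and Dmac2l, a factor associated with the mitochondrial ATP synthase (8.81 and 9.21 against 10.16 and 10.42). Med18, a subunit of the Mediator complex, had the largest difference of the 20 genes so chosen, at 5.88 and 6.62 against 8.16 and 8.63, 4.42-fold (2.54 to 7.71). Nde1, a dynein partner needed in mitosis, was at 7.93 and 8.21 against 9.09 and 9.06. Stard3nl (a late endosomal tether to the endoplasmic reticulum), Tdrkh (a Tudor domain protein of the piRNA pathway), Kpna6 (an importin) and Ptpn9 (a tyrosine phosphatase) were 1.83- to 2.39-fold higher. All 20 genes were picked for these values, which are given as a description.

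Among the lower ones, Arid4a, a subunit of Sin3 repressor complexes, was at 11.43 and 11.27 in WT and 10.57 and 10.33 in CD169-DTR, 1.87-fold lower (1.5 to 2.33). Brox, a protein that binds the membrane-remodelling ESCRT machinery, was at 8.62 and 8.38 against 7.06 and 7.57, and its non-irradiated values (8.48 to 8.78) were like those of WT 2 Gy. Ifi209, an interferon-inducible gene, was at 5.97 and 6.36 against 5.11 and 4.97 and was also lower in CD169-DTR without irradiation (5.25 and 5.70 against 4.88 and 4.75). Far2, an enzyme that makes fatty alcohols, was 2.99-fold lower (1.76 to 5.08), and the tetraspanin Tspan2 2.28-fold (1.55 to 3.35). Tnrc6a, a partner of Argonaute in gene silencing, Cir1, a corepressor of Notch targets, Eea1, a tether of early endosomes, and Osbpl2, a sterol-binding protein, were 1.53- to 1.66-fold lower.

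Targets of p53 showed no common direction between the genotypes after 2 Gy. Cdkn1a was at 13.06 and 13.41 in WT and 13.24 and 13.23 in CD169-DTR, a difference of 0.00 with a 95% interval of 0.67- to 1.48-fold. Without irradiation it was at 7.86 and 8.39 in WT and 9.79 and 9.34 in CD169-DTR, 1.44 higher. The genotypes thus overlapped after 2 Gy but not in the sham-irradiated mice (interaction -1.44, SE 0.34, unadjusted p = 0.0042, adjusted p = 0.839 in limma). Of 27 p53 targets 10 were higher and 16 lower, with a median of -0.07. Phlda3, a p53-induced brake on Akt signalling, was at 8.61 and 8.66 against 8.35 and 8.46, and Mdm2, the ligase that degrades p53, at 9.13 and 9.24 against 9.11 and 8.77. Fas, a death receptor, was at 7.36 and 6.18 against 4.99 and 5.94 and showed the same difference without irradiation (-1.30 in both). Gtse1, a mitotic protein that restrains p53, was higher, at 8.38 and 9.17 against 9.37 and 9.80. Over the 14 alternative settings its log2 difference was 0.2 to 1.205. Bcl2 family and caspase genes were evenly split, 11 higher and 11 lower of 23.

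H2ax, the histone variant phosphorylated at DNA breaks, stood at 12.65 and 13.10 in WT 2 Gy and 13.74 and 14.48 in CD169-DTR 2 Gy. It was 2.35-fold higher (1.51 to 3.67) without overlap, whereas in non-irradiated mice it was lower in CD169-DTR (13.71 and 13.51 against 13 and 12.89). Over the same 14 settings as for Cxcr4, the log2 difference of H2ax after 2 Gy was 0.64 to 1.605. The interaction was 1.90 (SE 0.38, unadjusted p = 0.0018, adjusted p = 0.778). Of 25 genes of double-strand break repair 17 were higher and 8 lower, with a median of 0.26, and 5 were higher and 0 lower at an unadjusted p under 0.05 (3.86% and 3.71% of all probe sets). All 25 lay above the median level, where 820 of 10150 protein-coding genes were higher and 319 lower at that threshold in limma. The 5 included Fanca of the Fanconi pathway (5.73 and 6.19 against 6.46 and 6.75), Rnf168, a ubiquitin ligase acting at breaks (11.16 and 11.64 against 12.19 and 11.80), and Xrcc4 of end joining (7.15 and 7.29 against 7.56 and 8.36). The list median depended on the WT array used, since without WT 2 Gy replicate 1 it was -0.04, with 12 higher and 13 lower, without its partner 0.52, and without both outlying arrays 0.02. Histone genes, which are made mainly in S phase, were higher for 21 of 29 (median 0.19), with 13 entirely above and 2 entirely below WT, against 16% and 18.9% of all probe sets. H2ac15 was at 11.94 and 12.25 against 12.95 and 13.55, while the linker histone H1f2 was 2.79-fold lower, at 13.84 and 13.44 against 12.73 and 11.59. The histone median was 0.06 without WT 2 Gy replicate 1, 0.34 without its partner and 0.04 without both outlying arrays.

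Most genes of DNA replication and mitosis had higher values in CD169-DTR LT-HSC after 2 Gy, and no member passed the test. Of 32 genes of G1/S and DNA replication, 30 were higher and 2 lower, with a median of 0.31. For 15 of them both CD169-DTR values lay above both WT values and for 0 below (16% and 18.9% of all probe sets). Of the 32, 8 were higher at an unadjusted p under 0.05 in limma (3.86% of all probe sets). In both replicate numbers 22 were higher (22.3% of all genes). Of 33 genes of G2/M and mitosis, 28 were higher and 5 lower, with a median of 0.38, and 16 lay entirely above and 2 entirely below WT, against 16% and 18.9% of all probe sets. All members of both lists lay above the median level. Of the 10150 protein-coding genes above it, 25.7% lay entirely above WT, 13.5% entirely below, and 34.1% were higher in both replicate numbers. Among those protein-coding genes, 820 were higher at an unadjusted p under 0.05 in limma. Without irradiation the medians of these lists were 0.17 and 0.18, with 26 higher and 6 lower in G1/S and 28 and 5 in G2/M. The interaction had an unadjusted p under 0.05 in limma in 3 and 1 of their genes, against 5.17% of all probe sets. The same lists were chosen with their behaviour in these arrays known, so the counts describe the arrays and add no independent evidence.

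E2f7, an atypical E2F that represses replication genes late in S phase and is itself a p53 target, was the member with the smallest p-value. It was at 8.45 and 8.65 in WT 2 Gy and 9.38 and 9.52 in CD169-DTR 2 Gy, 1.87-fold higher (1.46 to 2.38, adjusted p = 0.551 in limma), against 8.0 to 8.30 in the non-irradiated arrays. Gins2, a subunit of the replicative helicase complex, was at 9.68 and 10.28 against 10.72 and 10.90, 1.78-fold higher. Tk1, thymidine kinase, was at 7.92 and 8.53 against 8.91 and 8.85, and Mcm10, a replication initiation factor, at 7.95 and 8.01 against 8.32 and 8.91. The helicase subunits Mcm6 (13.88 and 14.22 against 14.53 and 14.47) and Mcm5 (12.69 and 12.82 against 13.05 and 13.30) and the licensing factor Cdt1 (7.10 and 7.16 against 7.28 and 7.95) were also higher without overlap, by 1.34- to 1.40-fold. For Cdt1 the log2 difference was 0.12 to 0.82 over the 14 alternative settings. The 2 lower members were the cyclins E, which start S phase, Ccne1 (8.05 and 8.29 against 7.95 and 8.12) and Ccne2, which was alike in all 4 arrays (10.84 to 10.87).

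In mitosis, Cdk1, the kinase that drives entry into M phase, was at 11.61 and 12.03 in WT and 12.29 and 12.47 in CD169-DTR, 1.47-fold higher (1.12 to 1.94). Anln, the contractile ring protein anillin, was at 7.90 and 8.75 against 9.74 and 9.11, and Kif20a, a kinesin of cytokinesis, at 8.75 and 8.76 against 9.16 and 9.62. Against these stood Cenpe, the kinetochore kinesin, 2.01-fold lower (1.35 to 2.99) at 9.71 and 9.95 against 9.08 and 8.57. Mki67, the proliferation marker Ki-67, was at 14.99 and 15.63 against 14.93 and 14.86, and the gap between the groups was narrower than the gap within WT. The members thus did not all differ one way, and Cenpe and Mki67 were lower in both replicate numbers.

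**Figure D3:**
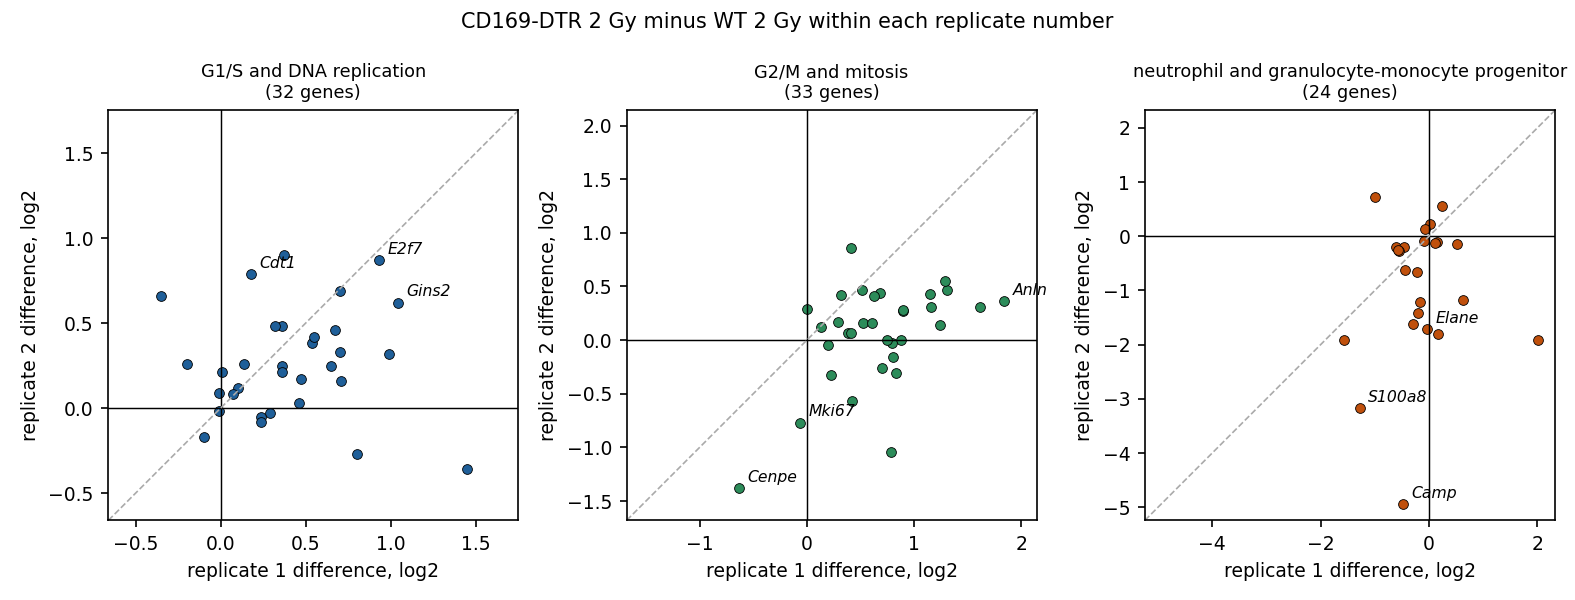
CD169-DTR 2 Gy minus WT 2 Gy difference of each gene (log2) within replicate 1 (horizontal axis) and within replicate 2 (vertical axis) for 3 lists, each point a gene, the dashed line marking equal differences. In the G1/S list 22 of 32 genes lie above 0 on both axes, in the G2/M list 20 of 33, with Cenpe and Mki67 below 0 on both, and in the neutrophil list 14 of 24 lie below 0 on both. Of all genes 22.3% lie above 0 on both axes and 26.1% below 0 on both.

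The size of both shifts depended on the arrays used. The G1/S median was 0.20 when WT 2 Gy replicate 1 was left out, 0.50 when its partner was, and 0.13, with 23 higher and 8 lower, without both outlying arrays. The G2/M median was 0.13, with 22 higher and 11 lower, without WT 2 Gy replicate 1, 0.61 without its partner, and 0.14, again with 22 and 11, without both outlying arrays. In each of these settings, and under cyclic loess (0.25 and 0.31) and median centring (0.38 and 0.45), both medians stayed above 0. WT 2 Gy replicate 1 had the lowest mean level of the G2/M list of the 4 irradiated arrays (10.02), with 10.55 in its partner and 10.69 and 10.60 in the CD169-DTR arrays.

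**Figure D4:**
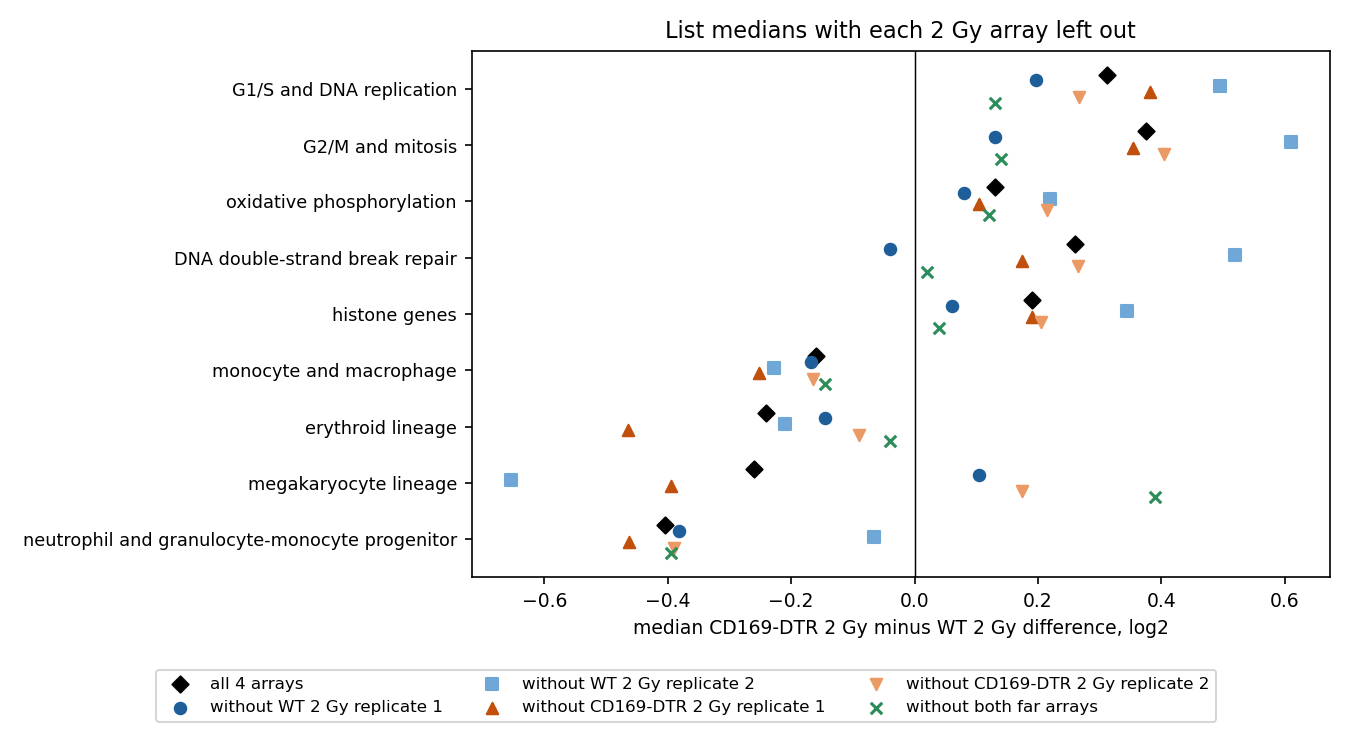
Median CD169-DTR 2 Gy minus WT 2 Gy difference (log2, horizontal axis) of 9 lists with all 4 arrays, with each 2 Gy array left out and with both outlying arrays left out. The cell cycle and oxidative phosphorylation medians stay above 0 and the monocyte and neutrophil medians below 0, whereas the megakaryocyte median runs from -0.66 to 0.39.

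Promoter sequences were examined for the cell cycle lists because their members were mostly higher together. They are those of RefSeq for mouse assembly GRCm38.p6, from 250 bases before to 50 after the gene start, and 26 and 28 genes of the lists had 30 and 29 promoters. The E2F site of replication genes was searched as TTTGGCGC and its variant TTTCGCGC on both strands, motifs chosen after the values were seen. Either was present in 7 of 30 G1/S promoters (23.3%), in 1 of 29 G2/M promoters (3.45%) and in 0.813% of all 32851 promoters. The cell cycle homology region of mitotic genes, searched as TTTGAA on both strands, was present in 23 of 29 G2/M promoters (79.3%), 5 of 30 G1/S promoters (16.7%) and 17.9% of all promoters. CCAAT boxes were present in 23 of 29 G2/M (79.3%) and 20 of 30 G1/S promoters (66.7%), against 37.4% of all. These matches describe the letters of the promoters and the known regulation of such genes, not binding in LT-HSC. The promoters below belong to higher members with the smallest p-values whose promoter holds a motif searched for their list. Genes on the chromosome of Kif20a were left out of this choice, though the p-value of Kif20a was smaller than those of Cdk1 and Anln. Capitals mark E2F matches in the first 3, which overlap in Mcm6 and Mcm5, and TTTGAA and CCAAT matches, on either strand, in the other 2, while Anln holds no CCAAT.
Mcm6 promoter, chr1:128359656-128359955, strand -: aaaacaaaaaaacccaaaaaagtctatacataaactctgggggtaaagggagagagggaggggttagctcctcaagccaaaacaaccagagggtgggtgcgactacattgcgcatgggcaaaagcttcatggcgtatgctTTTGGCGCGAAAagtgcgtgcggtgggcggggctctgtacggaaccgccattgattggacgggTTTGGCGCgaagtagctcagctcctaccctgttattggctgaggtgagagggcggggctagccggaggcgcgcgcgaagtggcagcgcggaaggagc
Mcm5 promoter, chr8:75109259-75109558, strand +: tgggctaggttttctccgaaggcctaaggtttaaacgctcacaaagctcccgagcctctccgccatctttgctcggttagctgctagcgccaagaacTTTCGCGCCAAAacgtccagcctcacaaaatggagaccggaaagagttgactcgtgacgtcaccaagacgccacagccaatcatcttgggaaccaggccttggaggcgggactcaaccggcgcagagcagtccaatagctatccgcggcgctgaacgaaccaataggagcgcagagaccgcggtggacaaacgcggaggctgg
Cdt1 promoter, chr8:122567765-122568064, strand +: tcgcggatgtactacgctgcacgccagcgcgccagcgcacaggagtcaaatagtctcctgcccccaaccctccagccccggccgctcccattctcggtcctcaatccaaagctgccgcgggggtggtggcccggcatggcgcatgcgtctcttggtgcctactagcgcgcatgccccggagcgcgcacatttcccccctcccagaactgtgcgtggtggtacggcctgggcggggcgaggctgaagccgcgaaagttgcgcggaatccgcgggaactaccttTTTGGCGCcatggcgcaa
Cdk1 promoter, chr10:69352863-69353162, strand -: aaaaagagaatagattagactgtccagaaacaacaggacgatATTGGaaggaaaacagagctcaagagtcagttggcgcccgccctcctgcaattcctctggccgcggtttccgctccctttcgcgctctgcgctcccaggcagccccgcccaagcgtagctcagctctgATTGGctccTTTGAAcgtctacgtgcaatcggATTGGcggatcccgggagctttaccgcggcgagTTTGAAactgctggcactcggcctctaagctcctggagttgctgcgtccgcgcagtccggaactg
Anln promoter, chr9:22389157-22389456, strand -: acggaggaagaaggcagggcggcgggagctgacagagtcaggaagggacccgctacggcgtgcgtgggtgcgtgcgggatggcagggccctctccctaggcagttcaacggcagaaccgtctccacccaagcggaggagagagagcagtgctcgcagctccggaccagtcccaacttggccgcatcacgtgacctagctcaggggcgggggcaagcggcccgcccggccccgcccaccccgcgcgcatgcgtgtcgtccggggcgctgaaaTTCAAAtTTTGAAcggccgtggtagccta

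Most genes of oxidative phosphorylation had slightly higher values in CD169-DTR LT-HSC, and no member passed the test. Of 29 measured, 27 were higher, 1 lower and 1 equal, with a median of 0.13, and 17 lay entirely above WT and 0 below, against 16% and 18.9% of all probe sets. The median for protein-coding genes above the median level was 0.07, so the shift of this list was small on that scale. Of those protein-coding genes 25.7% lay entirely above and 13.5% entirely below WT. Ndufv1 of complex I was at 11.65 and 11.86 against 12.34 in both CD169-DTR arrays, Uqcrc1 of complex III at 14.89 and 14.84 against 15.34 and 15.26, and Sdhc of complex II at 10.03 and 9.90 against 10.49 and 10.27. These genes were 1.33- to 1.5-fold higher, without overlap. The list median was 0.08 without WT 2 Gy replicate 1, 0.22 without its partner and also without CD169-DTR 2 Gy replicate 2, and 0.12, with 26 higher, without both outlying arrays, and it was 0.11 without irradiation. Glycolysis genes were higher for 14 of 22 (median 0.07), ribosome biogenesis genes for 16 of 25 (0.09), antioxidant genes for 10 of 18 (0.03), unfolded protein response genes for 10 of 22 (-0.03) and cytosolic ribosomal protein genes for 19 of 43 (-0.01).

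LT-HSC identity genes showed no common direction, with 16 higher and 15 lower of 31 and a median of 0.02. Procr, the surface protein EPCR that marks LT-HSC, was lower without overlap, at 7.03 and 7.01 in WT and 6.62 and 6.27 in CD169-DTR, 1.49-fold (1.15 to 1.92). Meis1, a homeobox regulator of stem cell quiescence, was at 12.99 and 12.88 against 12.76 and 12.14, and Ndn, a p53-linked growth suppressor, at 11.04 and 11.70 against 11.67 and 11.83. Quiescence regulators were higher for 9 and lower for 12 of 22 (median -0.04). Among the lower were the CDK inhibitor Cdkn2c (5.15 and 5.39 against 4.93 and 4.86) and the antiproliferative gene Btg1 (8.27 and 8.78 against 8.21 and 7.82). Both were also lower without irradiation, Cdkn2c at 5.47 and 5.70 against 5.11 and 4.92 and Btg1 at 9.25 and 8.63 against 8.43 and 7.99. In the TGF-beta pathway, which holds stem cells in quiescence, 15 of 24 genes were higher (median 0.07), but its parts differed in direction. The receptor Tgfbr1 was lower (7.49 and 7.30 against 6.83 and 6.90) and so was the corepressor Tgif1 (9.01 and 8.83 against 8.5 and 8.53). The coreceptor endoglin, Eng, was higher (10.15 and 9.79 against 10.51 and 10.86), as was the shared signal transducer Smad4 (10.28 and 10.47 against 10.71 and 10.82). These 4 genes were picked as the members with the smallest p. None of them overlapped between the genotypes, and their unadjusted p lay between 0.0054 and 0.0275 with limma. Of all 24 members 4 lay entirely above and 5 entirely below WT, against 16% and 18.9% of all probe sets.

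Inflammatory programmes were split. Type I interferon genes were higher for 18 of 33, with a median of 0.04 against 0.26 without irradiation. Leaving arrays out moved this median from -0.12, without CD169-DTR 2 Gy replicate 1, to 0.20, with 24 higher and 9 lower, without both outlying arrays. Oas2, an antiviral sensor of double-stranded RNA, was at 5.69 and 4.93 against 5.97 and 6.45, as in the non-irradiated arrays (5.05 and 5.33 against 6.54 and 6.62). Herc6, the ligase that attaches ISG15, was lower, at 9.44 and 9.36 against 8.98 and 8.65. Interferon-gamma and MHC class I genes were higher for 15 of 28, and NF-kB and cytokine genes for 17 of 31. Il6 was near background in WT 2 Gy (4.08 and 3.96) and at 4.68 and 5.71 in CD169-DTR 2 Gy. Without irradiation the order of the genotypes was the reverse, at 5.51 and 4.71 in WT and 3.94 and 4.48 in CD169-DTR. Cd86, a costimulatory molecule, was lower after 2 Gy (8.33 and 7.93 against 7.45 and 7.30) and higher without irradiation (7.62 and 7.19 against 8.29 and 8.30), with an interaction of -1.65 (unadjusted p = 7.32e-04, adjusted p = 0.753). The MHC class II chaperone chain H2-DMb1 was at 10.14 and 10.54 against 11.04 and 11, while the 13 class II genes were split, 6 higher and 7 lower.

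Among immediate early genes 10 were higher and 18 lower of 28, with a median of -0.04. Fos and Jun, the partners in the transcription factor AP-1, were both lower, Fos at 9.07 and 8.46 against 7.25 and 7.78 and Jun at 11.76 and 11.68 against 10.86 and 10.36. Fos was 2.38-fold (1.31 to 4.31) and Jun 2.16-fold lower (1.20 to 3.90), without overlap. Dusp6, a phosphatase that limits ERK, was at 9.02 and 10.62 against 10.81 and 12.14, a spread within each genotype almost as wide as the difference. Over the 14 alternative settings the log2 difference of Dusp6 was 0.19 to 2.455. Genes for iron and haem, which macrophages recycle, were split, 12 higher and 15 lower of 28, and Trf, transferrin, was at 9.15 and 8.80 against 9.59 and 9.42.

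Most markers of mature myeloid cells and their progenitors had lower values in CD169-DTR LT-HSC after 2 Gy, and no member passed the test. Of 24 neutrophil and granulocyte-monocyte progenitor genes, 6 were higher and 18 lower, with a median of -0.41, and 8 lay entirely below and 2 entirely above WT, against 18.9% and 16% of all probe sets. Without irradiation 18 of the 24 were higher in CD169-DTR and the median was 0.42, and the interaction had a median of -0.75 and an unadjusted p under 0.05 in 7 of 24 genes, against 5.17% of all probe sets. The mean level of the list was 7.44 and 7.79 in WT 2 Gy, 7.26 and 6.88 in CD169-DTR 2 Gy, 6.41 and 6.98 in non-irradiated WT and 7.05 and 7.57 in non-irradiated CD169-DTR arrays. Cebpa, the transcription factor that specifies granulocyte-monocyte progenitors, was at 7.01 and 7.68 against 6.80 and 6.26, 1.76-fold lower (1.10 to 2.82), and Itgam, the integrin CD11b, at 5.93 and 5.84 against 5.49 and 5.22. Prtn3, a granule protease, was at 9.09 and 9.67 against 8.86 and 9.02, and Elane, neutrophil elastase, at 12.80 and 14.57 against 12.76 and 12.86. The granule genes were the most variable: S100a8 was at 12.25 and 13.31 against 10.97 and 10.14, and Camp at 10.80 and 10.85 against 10.32 and 5.91. Camp was thus low in 1 CD169-DTR array alone, and non-irradiated arrays ran from 6.74 to 11.83 for S100a8. The list median was -0.07, with 11 higher and 13 lower, without WT 2 Gy replicate 2, the array with the highest level, and -0.40 without both outlying arrays. Promoters of these genes held the PU.1 motif GAGGAAGT in 7 of 24 (29.2%, against 3.20% of all promoters) and the C/EBP motif TTNCNNAA in 16 of 24 (66.7% against 40.7%), searched on both strands of the 300-base windows.

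Of 28 monocyte and macrophage genes 3 were higher and 25 lower, with a median of -0.16, 11 entirely below and 1 entirely above WT (18.9% and 16% of all probe sets), and with median centring 7 were higher and 21 lower. The median was -0.15, with 8 higher and 20 lower, without both outlying arrays, -0.25 without CD169-DTR 2 Gy replicate 1, and below 0 with each other 2 Gy array left out. As many as 15 of the 28 genes had a mean under the median level, and the defining macrophage genes Siglec1 (3.86 to 4.12) and Adgre1 (4.42 to 4.75) were near background in all 4 irradiated arrays. The RNA came from sorted LT-HSC, so Siglec1 and Adgre1 carry no measure of macrophage depletion in the marrow. Ly6c2, a monocyte surface antigen, was at 13.62 and 14.90 against 13.48 and 13.09, and Csf1r, the M-CSF receptor, at 4.84 and 4.41 against 4.24 and 4.21. Whether the myeloid markers bear on the other differences was not tested.

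Megakaryocyte genes were lower for 14 of 19 (median -0.26), but the direction turned without WT 2 Gy replicate 1 (0.11), without CD169-DTR 2 Gy replicate 2 (0.18) and without both outlying arrays (0.39), and it was -0.66 without WT 2 Gy replicate 2 and -0.40 without CD169-DTR 2 Gy replicate 1. The mean level of these genes was 10.33 in WT 2 Gy replicate 1 and 9.33 to 9.84 in the other irradiated arrays. Erythroid genes were lower for 15 of 19 (median -0.24, and -0.04 without both outlying arrays, -0.14 without WT 2 Gy replicate 1, -0.09 without CD169-DTR 2 Gy replicate 2 and -0.46 without its partner), whereas 16 of the 19 were higher without irradiation (0.18). Mast cell, basophil and eosinophil genes were higher for 13 of 19 (median 0.19), among them Cpa3, a mast cell protease, at 10.47 and 10.93 against 11.70 and 11.61. Of the 19, 11 had a mean under the median level. Without irradiation 9 were higher and 10 lower (median -0.035). After 2 Gy the median was 0.26 without both outlying arrays. The mast cell median was 0.03, with 11 higher and 8 lower, without CD169-DTR 2 Gy replicate 1, 0.11 without WT 2 Gy replicate 1 and 0.30 without its partner. Lymphoid progenitor genes (8 higher and 9 lower), mature lymphocyte genes (10 and 14) and endothelial and stromal genes (8 and 15) had medians of -0.03, -0.01 and -0.07. In the sorting gate, Slamf1 (CD150) was at 12.38 and 11.63 against 11.69 and 10.98, and Cd48, whose protein the gate excludes, at 12.95 and 12.14 against 13.47 and 13. Cd3e was near background in all arrays (3.62 to 4.03), and Flt3 (Flk2) lay at 5.85 to 6.65 in the irradiated arrays.

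Small RNA genes are shown with their mature sequences because the rule for named genes passed them over. Of 600 microRNA genes 241 were higher (40.2%, against 45.8% of all genes) and 352 lower, with a median of -0.06. With median centring 306 were higher and 291 lower, with a median of 0.01. As many as 371 of the 600 had a mean under the median level. At an unadjusted p under 0.05 in limma, 12 were higher and 48 lower (3.86% and 3.71% of all probe sets). Probe sets of a microRNA gene need not separate the precursor from the mature form. RefSeq held a mature sequence for 482 of the 600, and those of the 4 members with the smallest p-values and of Mir34a, chosen after its values were seen, are printed with the seed (bases 2 to 8) in capitals.
Mir465c-2, mmu-miR-465c-5p, chrX:66832566-66832587, strand -: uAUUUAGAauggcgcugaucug
Mir5615-1, mmu-miR-5615-3p, chr10:81104614-81104635, strand -: uGUCUCAGaaaacaaccaagga
Mir5615-1, mmu-miR-5615-5p, chr10:81104652-81104673, strand -: cUUGGUUGuuuucugagacaga
Mir186, mmu-miR-186-5p, chr3:157544285-157544306, strand +: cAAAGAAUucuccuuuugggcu
Mir186, mmu-miR-186-3p, chr3:157544324-157544345, strand +: gCCCUAAGgugaauuuuuuggg
Mir681, mmu-miR-681, chr12:69763923-69763943, strand -: cAGCCUCGcuggcaggcagcu
Mir34a, mmu-miR-34a-5p, chr4:150068473-150068494, strand +: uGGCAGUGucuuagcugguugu
Mir34a, mmu-miR-34a-3p, chr4:150068517-150068537, strand +: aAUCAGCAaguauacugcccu

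No seed is shared among these 8 mature forms. Mir34a, a direct p53 target whose product restrains cyclins and CDKs, was at 5.41 and 5.42 in WT 2 Gy and 4.87 and 4.92 in CD169-DTR 2 Gy, against 4.45 to 4.68 in the non-irradiated arrays. It was 1.43-fold lower (1.20 to 1.72, adjusted p = 0.551 in limma), and its groups did not overlap. Mir465c-2, one of several X-linked copies that share sequence and probes may not separate, was at 6.27 and 6.30 against 5.34 and 5.54, and Mir681 at 7.06 and 7.10 against 6.48 and 6.51. Mir5615-1, whose mature forms are also those of Mir5615-2, was below the median of the arrays throughout, at 3.08 and 3.19 against 3.96 and 3.88. Mir186 was at 4.44 and 3.91 against 5.68 and 5.25, and its non-irradiated values showed the reverse (5.90 and 5.71 in WT, 4.62 and 4.96 in CD169-DTR). Among small nucleolar RNAs Snora31 was 4.20-fold lower (2.43 to 7.24), at 10.15 and 10.17 against 8.45 and 7.73, in a list of 62 with 27 higher and 35 lower, and of 209 immunoglobulin genes 95 were higher and 114 lower.

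The genotype difference without irradiation gives the reference for all of these values. It shares no array with the 2 Gy comparison, and 0 probe sets passed in it (0%) while 1327 (4.38%) had an unadjusted p under 0.05. Across probe sets the 2 differences correlated with r = 0.02 (Spearman rho = 0.05), a description over genes that share the groups' normalisation. Cxcr4, E2f7 and Emc1 had differences of -0.04, -0.10 and -0.02 without irradiation. Itga5 (0.58), Fas (-1.30) and Oas2 (1.39) differed in the same direction in both conditions, and H2ax (-0.67), Cd86 (0.89) and Mir186 (-1.01) in the opposite one.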

How the data were processed

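RNA was labelled with an Affymetrix Pico kit, per the labels' protocols. The authors deposited log2 values made with RMA, the method per the submitters' processing notes. The base is not given in the sources used here and is taken from the convention of RMA. They were used as deposited, with no filter. Symbols came from the platform table, and 22546 probe sets were matched to RefSeq (GRCm38.p6) by Entrez ID.

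One model with 4 group means was fitted to all 8 arrays with limma 3.58.1 (lmFit and eBayes, R 4.3.3), leaving 4 residual and 2.59 prior degrees of freedom. Tests were two-sided and adjusted by the Benjamini-Hochberg method over 30294 probe sets. Intervals are 95% intervals of that fit. The number of arrays limits the precision. The script was tested on simulated data.

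The 34 gene lists and the genes described were chosen with earlier results of these data known. The probe set with the highest mean stood for a gene. Named genes were the 10 higher and 10 lower with the smallest unadjusted p among those at least 1.5-fold apart, without overlap and above the median level (4 of no known role were passed over by hand), in every list the 4 genes of lowest p, the gate markers and a fixed set including Cdkn1a, Mdm2, Mki67, Axl and Mertk. Mcm5, Mcm6, Cdt1, Ccne1, Ccne2, S100a8, Camp, Elane and Mir34a were chosen after their values were seen. Some genes of the lists are not reported here.

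Alternatives were a trended and robust variance prior, a filter at the 40th percentile, all probe sets, cyclic loess, median centring, array weights, a replicate block, only the compared groups, another call rule, each array left out, the mean over a gene's probe sets and, chosen after seeing the data, both outlying arrays left out.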

Additional observations from a re-analysis of the deposited data

How the results depend on the processing

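The count of 0 probe sets past the threshold after 2 Gy held with the intensity trend, the dim filter, cyclic loess, median centring, array weights and only the compared groups. It was 1 with all probe sets, an immunoglobulin probe set with several symbols, and 0 to 11 with single arrays left out (WT 2 Gy replicate 1 out, 3; its partner out, 11; the second CD169-DTR 2 Gy array out, 4), all of them immunoglobulin, microRNA or predicted genes. Without both outlying arrays it was 2, both immunoglobulin kappa genes. The non-irradiated count was 1 with the trend (Mir148a) and 0 to 6 with single arrays left out. The interaction count was 0 to 7 with single arrays left out and 1 without both outlying arrays. With an unadjusted p under 0.05 and at least 1.5-fold, the counts were 1077 (559 higher), 572 and 1215.

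With the replicate number as a block all 3 counts stayed at 0, with a smallest adjusted p of 0.439 after 2 Gy. Whether the numbers pair the samples is not known. The deviations of same-numbered arrays correlated at -0.06 between the 2 Gy groups and at -0.09 to 0.16 over all pairs of groups. With 2 arrays a group these correlations cannot decide it.

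Of 107 genes described, 100 did not turn from one direction to the other under any alternative. This count was partly fixed in advance and is no measure of robustness. Many of these genes had 2 Gy groups that did not overlap, so leaving arrays out could not turn them. Several alternatives, such as array weights, the replicate block and another call rule, changed only the test and not the difference. Cdkn1a, at 0.00, has no direction and ran from -0.18 to 0.18. Axl had 0.03 with median centring, -0.41 to 0.33 with single arrays left out and 0.37 without both outlying arrays. Ccne2 had 0.055 with median centring, Elane -1.76 to 0.01 with single arrays left out and without both outlying arrays Ndn had -0.03 and Slamf1 0.06. Near background, Cd3e had 0.0094 with cyclic loess, 0.05 with median centring, 0.25 without both outlying arrays and -0.175 to 0.135 with single arrays left out, and Adgre1 had 0.015, 0.08 and -0.22 to 0.11 in the last 3 of these. Median centring shifted the difference by 0.07 and raised the share of higher probe sets from 45.7% to 60.1%; with cyclic loess it was 49.6%. A lone remaining array takes its spread from the other groups. Signal over background limits dim genes such as Siglec1, Il6 and Mertk.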

Other observations

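Protein-coding genes above the median level differed by the genomic span of the gene in the RefSeq annotation. In 5 groups of about equal size, from short to long, the median CD169-DTR 2 Gy minus WT 2 Gy difference was 0.11, 0.12, 0.09, 0.03 and -0.04. The share of higher genes was 66.2% in the group with the shortest spans and 44.6% in the one with the longest. The longest genes also had the lowest median within replicate 1 (0.03, against 0.14 in the shortest) and within replicate 2 (-0.12 against 0.07). Without irradiation the medians of the shortest and longest genes were 0.05 and -0.05. Whether span bears on the list medians was not tested.

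By annotated kind, 48.8% of 18808 protein-coding genes were higher in CD169-DTR after 2 Gy, against 38.5% of 2112 long non-coding RNA genes and 37.7% of 207 pseudogenes. Of the 1408 probe sets at least 1.5-fold apart without overlap, those of predicted genes, small RNAs and receptors were mostly lower (370 of 506), and the others mostly higher (621 of 902).

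Some genes outside the lists had interaction p-values close to that of Cxcr4 and were chosen after their values were seen. Wdr6, a WD repeat protein, was at 8.94 in both WT 2 Gy arrays and 9.48 and 9.32 in CD169-DTR 2 Gy, against 10.06 and 9.91 in non-irradiated WT and 8.95 and 9.14 in non-irradiated CD169-DTR. Dhrs3, a retinaldehyde reductase, was at 7.39 and 7.56 against 8.30 and 8.35 after 2 Gy, and at 8.64 and 8.30 against 7.77 and 7.74 without it. Ube2s, a ubiquitin-conjugating enzyme of the anaphase-promoting complex, was at 11.28 and 11.47 against 12.02 and 12.39 after 2 Gy, and at 12.71 and 12.36 against 11.62 and 11.51 without it. In limma their interactions were 1.40, 1.56 and 1.80, each with an adjusted p of 0.679.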
